A study of Mus musculus with 7 samples.

Results

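Oxidative phosphorylation is carried out by 5 protein complexes of the inner mitochondrial membrane, and most of their subunits are encoded in the nucleus while a few are encoded by mitochondrial DNA. The members described here are the 106 gene symbols, of 23413 in the deposited tables, whose names follow the patterns for subunits of complex I (Nduf), complex II (Sdh), complex III (Uqcr), complex IV (Cox4 to Cox8) and complex V (Atp5), with cytochrome c (Cycs) and the mitochondrially encoded mt-Nd, mt-Co, mt-Atp and mt-Cytb genes. Of these, 84 are nuclear subunit genes including Cycs, 12 are mitochondrial subunit genes, and 10 match by name only (the assembly factors Ndufaf1 to Ndufaf7, Atp5s, Atp5sl and Atp5l-ps1) and were counted apart. The nuclear genes comprised 36 of complex I, 4 of complex II, 8 of complex III, 20 of complex IV and 15 of complex V. Ndufa4 and Ndufa4l2, named after complex I, were counted with complex IV, where the Ndufa4 protein resides.

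As background, complexes I and II pass electrons from NADH and succinate to ubiquinone, complex III passes them on to cytochrome c, and complex IV reduces oxygen. Complexes I, III and IV pump protons, and complex V uses the gradient to make ATP. Complex II is the only one with no mitochondrially encoded subunit. In the developing cortex, dividing progenitors are known for relying more on glycolysis than mature neurons do, and nuclear and mitochondrial subunit genes are transcribed by separate polymerases.

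The counts come from cerebral cortex of mouse embryos at E18.5, profiled by Seq-Well, which captures single cells in microwells and counts unique molecular identifiers (UMIs) at the 3′ ends of polyadenylated RNA. The mutants were 4 Emx1CreERT2;Ash1lfl/fl embryos (replicates 10, 11, 12 and 17) and the controls 3 Ash1lfl/fl embryos without Cre (replicates 14, 15 and 16). All 7 carried both floxed alleles of Ash1l, which encodes a histone methyltransferase, and all were exposed to tamoxifen given to the dam at 100 mg/kg at E10.5. Emx1 drives the inducible Cre in dorsal telencephalic progenitors and their descendants, so other cells in the tissue, such as GABAergic interneurons, microglia and vessels, are outside its lineage. The embryos are littermates. Their sex and any batch of the libraries are not stated in the labels.

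Barcodes with at least 500 detected genes and at most 10% of UMIs in mitochondrial genes were kept, which left 23005 cells with 48334984 UMIs (2114 to 4285 cells and 5316785 to 9460628 UMIs per embryo). The limit on mitochondrial UMIs removed 7.01% to 17.3% of the barcodes with 500 genes in the controls and 2.19% to 5.24% in the mutants. Cells were classed by counts of detected marker genes: 16253 neurons, 1874 progenitors (cycling and intermediate), 1216 glia (radial glia, astroglia and oligodendrocyte precursors), and, within the neurons, 8319 glutamatergic and 1162 GABAergic cells, while 3472 cells (15.1%) met no gate. Median depth per embryo ran from 1266 to 2112.5 UMIs per neuron, from 1627 to 3630 per progenitor and from 1233.5 to 1958.5 per glial cell, so progenitors were the deepest. Within the neurons it ran from 1545 to 2725 UMIs per glutamatergic and from 1105.5 to 1706 per GABAergic cell. Doublets were not removed, and any 2 libraries shared 2 to 6 cell barcodes. Levels are given as UMIs per 1000000 UMIs (CPM). Ash1l itself was at 125 to 165 CPM in the mutants and 165 to 217 in the controls, without overlap, and its log2 difference of −0.39 (SE 0.12) did not pass correction (adjusted p = 0.336). Whether the counted 3′ tags lie in the floxed part is not known, so this is a weak check of the labels. Summed pan-neuronal markers were lower in every mutant (8115 to 11233 CPM) than in any control (11342 to 11651), and summed glutamatergic markers likewise (1509 to 1839 against 1856 to 2162). Summed erythroid markers were at 989 to 2847 CPM in the controls and 1723 to 2468 in the mutants, highest in control 16 and, among the mutants, in mutant 12. Mutant 12 was also the highest of all embryos in summed meningeal and choroid plexus markers (479 CPM, controls 18.2 to 181). The same held for summed GABAergic markers (538 CPM, controls 325 to 370). Fewer cells of a type and less RNA per cell cannot be told apart in sums over all cells.

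The sequences of the mitochondrial genes are shown because several are nearly copied in nuclear DNA, which bears on how their UMIs can be read. The mm10 genome holds a block of unprocessed pseudogenes on the minus strand of chromosome 1, from 24611535 to 24616197 (Gm28439, Gm10222, Gm28438, Gm28437, Gm10925, Gm28661 and Gm29216), that copies a stretch of mitochondrial DNA. Shown 5′ to 3′ are 60 bases near the 3′ end of mt-Co2 (bases 622 to 681 of the gene, identical to Gm28661), of mt-Co3 (bases 724 to 783, identical to Gm28437), and, from further inside the gene, bases 1063 to 1122 of the 1545 of mt-Co1 beside its copy in Gm29216, with the single differing base in capitals. Positions count from 1 at the 5′ end of the gene, and the difference is A1066T. From base 1067 to its 3′ end mt-Co1 is identical to Gm29216, so this difference lies 480 bases from the 3′ end. Where in the gene the counted tags lie was not examined.
mt-Co2 and Gm28661: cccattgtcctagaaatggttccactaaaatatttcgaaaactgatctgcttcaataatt
mt-Co3 and Gm28437: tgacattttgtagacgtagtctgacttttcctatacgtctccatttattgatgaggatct
mt-Co1: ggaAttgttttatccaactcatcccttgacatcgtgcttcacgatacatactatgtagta
Gm29216: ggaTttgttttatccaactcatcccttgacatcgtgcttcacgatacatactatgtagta

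Of all stretches of 50 bases in a gene, the share also found in another gene of the annotation was 100% for mt-Co2, 99.9% for mt-Co3, 99.5% for mt-Atp6, 98.8% for mt-Nd4l and 98.0% for mt-Nd3. The same 5 genes had the lowest counts among the 12. Over all kept cells mt-Co2 had 11 UMIs, mt-Co3 15, mt-Atp6 21, mt-Nd4l 0 (which allows up to 0.0621 CPM) and mt-Nd3 165. mt-Nd4 shared 62.2% of its stretches, all within bases 1 to 876, so its 3′ end was unique, and it had 32520 UMIs. mt-Co1 shared 51.1%, with Gm29216 over bases 1067 to 1545 at its 3′ end and with Gm13340 and Gm11512 in shorter runs between bases 1 and 1457, and had 22214 UMIs. mt-Nd2 shared 8.19%, including bases 862 to 990 with Gm13339, a run that ends 48 bases from its 3′ end. mt-Nd5 shared 7.61%, with Gm4076 and Gm11407. mt-Cytb, mt-Nd1 and mt-Nd6 shared none. How tags that match both copies were assigned is not given in the sources used here and its part in these counts was not tested, so mt-Co2, mt-Co3, mt-Atp6, mt-Nd4l, mt-Nd3 and mt-Co1 are uncertain as levels. Counts of the pseudogenes are not used here, and mt-Atp8 was not analysed here.

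**Figure D1:**
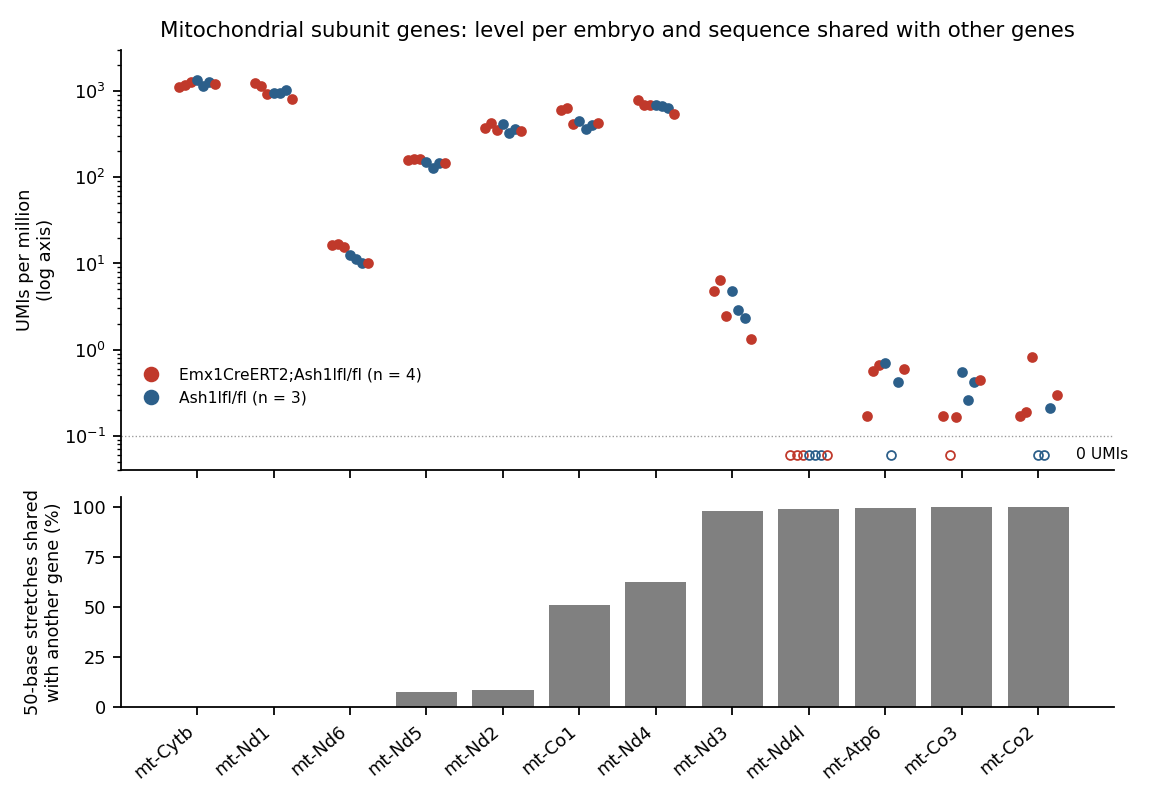
Upper panel: CPM of each of the 12 mitochondrial subunit genes in each embryo, on a log axis, with open circles for 0 UMIs. Lower panel: percent of the gene's 50-base stretches found in another gene; the 5 genes at or above 98.0% are the 5 with the fewest UMIs.

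Among the other mitochondrial genes, mt-Cytb, the only mitochondrially encoded subunit of complex III, was highest with 59191 UMIs. It stood at 1105, 1185, 1266 and 1208 CPM in mutants 10, 11, 12 and 17 and at 1342, 1145 and 1280 in controls 14, 15 and 16. mt-Nd1, a membrane subunit of complex I, stood at 1237, 1149, 936 and 822 CPM in the mutants and 955, 953 and 1047 in the controls. The groups overlapped for both genes. mt-Nd6, the only protein gene on the light strand of mitochondrial DNA, was the lowest of those without shared sequence: 16.3, 16.7, 15.5 and 10.3 CPM in the mutants and 12.7, 11.2 and 10.1 in the controls. Its groups overlapped through mutant 17. Members were a small share of mitochondrial RNA in these libraries: 6.54% to 10.7% of the UMIs of mt- genes, while the ribosomal RNAs mt-Rnr1 and mt-Rnr2 held 89.3% to 93.5%. A filter on the mitochondrial share therefore acted mainly on ribosomal RNA. In the controls there were 10.8, 14.3 and 10.0 ribosomal RNA UMIs for each member UMI, and in mutants 10, 11, 12 and 17 there were 9.43, 8.37, 9.0 and 10.4, so the groups overlapped.

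Nuclear subunits were expressed broadly, and 75 of the 84 had enough counts for testing in all cells and in the class comparisons of progenitors and of glia with neurons. The 9 that did not were Atp5g2, Cox4i2, Cox6a2, Cox6b2, Cox7a1, Cox7b2, Cox8b, Cox8c and Ndufa4l2. The highest of each complex, in CPM over all kept cells, were Ndufc2 (342, an accessory subunit of complex I), Sdhb (223, the iron-sulfur subunit of complex II), Uqcrq (295, complex III), Cox4i1 (1080, complex IV) and Atp5b (842, the catalytic beta subunit of ATP synthase). Tags are counted at the 3′ end, so these levels are not scaled by gene length. For the nuclear genes shared stretches of 50 bases were counted over the last 300 bases, not over the whole gene as for the mitochondrial ones. Of the 84, 54 shared none with another gene, 30 shared some and 8 shared over 40%. Those 8 (Atp5l, Cox7c, Atp5h, Atp5g2, Ndufs3, Ndufs5, Atp5o and Uqcrb) had a median of 33.0 CPM against 142 for the 54. They ranged widely, from 0.0207 for Atp5g2 to 249 for Atp5o, and the part of shared sequence was not tested.

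Several subunits have tissue-specific isoforms, and the isoforms known from muscle or testis were at or near 0. Over all kept cells Cox6a2 had 4 UMIs against 16746 for Cox6a1, Cox8b and Cox8c had 1 UMI each against 6038 for Cox8a, and Cox7b2 had 9 against 10482 for Cox7b. Cox7a1 had 49 UMIs against 11162 for Cox7a2 and 6696 for Cox7a2l, and Cox6b2 had 26 against 12504 for Cox6b1. Of the 3 genes that encode the c subunit of ATP synthase, Atp5g3 had 16529 UMIs, Atp5g1 870 and Atp5g2 1. Atp5g2 shared 55.5% of its 3′ stretches with other genes, so its level is uncertain.

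Of the hypoxia-responsive isoforms, Cox4i2 had 53 UMIs in all. In the 139 cells gated as vascular it reached 43.4 CPM (16 UMIs, exact Poisson 95% interval 24.8 to 70.5), in glia 6.55 (15 UMIs, 3.67 to 10.8) and in neurons 0.303 (10 UMIs, 0.145 to 0.557). Ndufa4l2, a marker of pericytes in brain, had 24 of its 35 UMIs (68.6%) in vascular cells, which held 0.763% of all UMIs. Its vascular level was 65.1 CPM (41.7 to 96.9, in 6 embryos), against 0.182 in neurons (6 UMIs) and 0 in glia, which allows up to 1.31. The intervals of vascular cells and neurons did not overlap for either gene, and they cover counting error only, since cells and UMIs of 1 embryo are not independent. Their common counterparts showed no such pattern, with Cox4i1 at 1245 CPM in vascular cells and 1091 in neurons.

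Summed over genes, nuclear subunits made up 1.35%, 1.34%, 1.17% and 1.60% of UMIs in mutants 10, 11, 12 and 17 and 1.51%, 1.45% and 1.44% in controls 14, 15 and 16. Mitochondrial members made up 0.431%, 0.427%, 0.385% and 0.350% in the mutants and 0.402%, 0.361% and 0.390% in the controls. Mutant 17 was thus highest in the nuclear and lowest in the mitochondrial share. Within every embryo the nuclear share was higher in progenitors than in neurons, by 0.0856 percentage points on average (SD 0.0238, n = 7), at 1.48% ± 0.131 against 1.40% ± 0.142 (SD). The mitochondrial share was lower in progenitors in all 7, with a mean difference of −0.0232 points (SD 0.0125). The log2 ratio of mitochondrial to nuclear member UMIs was accordingly lower in progenitors in 7 of 7 embryos, with differences from −0.23 to −0.07. Glia lay nearer to neurons: their nuclear share was higher in 4 embryos and lower in 3, and their log2 ratio was lower in 6 of 7, with a mean difference of −0.09 (SD 0.05). GABAergic neurons had a lower nuclear share than glutamatergic neurons in 7 of 7 embryos, with a mean difference of −0.0872 points (SD 0.0357). These sums are descriptions and were not tested.

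**Figure D2:**
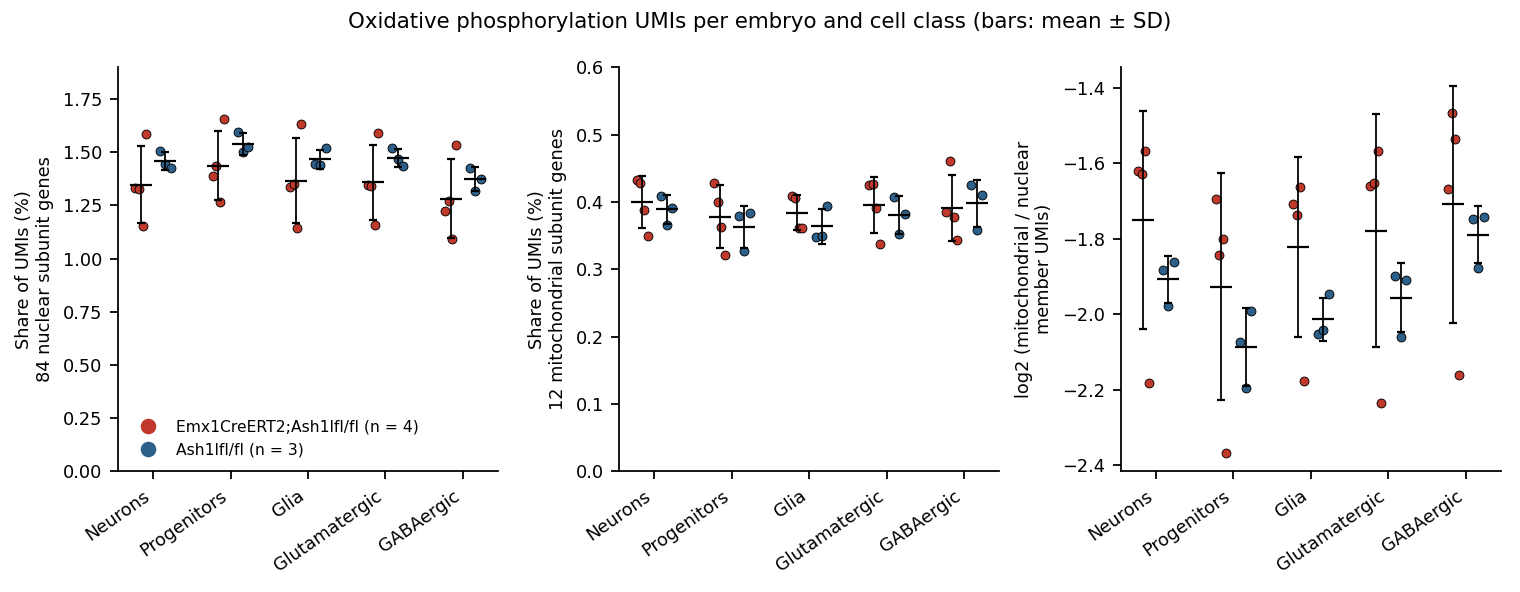
Each point is 1 embryo, with the mean and SD of each genotype (4 mutants, 3 controls). Panels show the share of UMIs in the 84 nuclear subunit genes and in the 12 mitochondrial genes, as percent, and the log2 ratio of the latter to the former; mutant 17 has the lowest ratio in every class, and the ratio is lower in progenitors than in neurons in each embryo.

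Progenitors were compared with neurons of the same embryo to ask which subunits differ by cell class. Complex I was divided: its accessory subunit Ndufc2 was much higher in progenitors, several further accessory subunits were modestly higher, and Ndufb2, Ndufs4, Ndufa8 and Ndufb10 were lower. Of the 4 complex II genes 3 were higher, and mitochondrially encoded mt-Nd4, mt-Cytb and mt-Nd2 were lower. Of these complex II and mitochondrial genes, only Sdhd and mt-Nd4 also passed among cells of 1000 to 3000 UMIs. Of the lower complex I genes only Ndufb10 did. With edgeR's quasi-likelihood test and Benjamini-Hochberg adjustment over 11161 genes, 15 of the 75 tested nuclear subunits were higher in progenitors and 7 lower, a smaller share than the 29.5% and 28.6% of all tested genes. The nuclear median was 0.03 on the log2 scale against −0.00 for all genes. By complex the counts of higher and lower were 7 and 4 of 36 for complex I, 3 and 0 of 4 for complex II, 2 and 1 of 8 for complex III, 1 and 2 of 12 for complex IV and 2 and 0 of 14 for complex V. Gated progenitors were not free of other markers: per embryo their median cell held 4 to 5 of the 15 progenitor, 3 to 7 of the 12 neuronal and 3 to 4 of the 16 glial markers. Counted before vascular and microglial barcodes were set apart, 690 kept barcodes stood at the minimum of 3 progenitor markers. The part of these markers in the differences was not tested. When library factors were computed over every gene with at least 1 UMI, all genes shifted by −0.11. The nuclear counts became 3 higher and 18 lower. Among the genes that kept their calls were Ndufc2, Ndufb11, Ndufa2, mt-Nd4 and mt-Cytb. Without the embryo as a block 5 were higher and 0 lower, and among cells of 1000 to 3000 UMIs 8 were higher and 1 lower. Of the 22 nuclear calls, Ndufc2 and Ndufb11 passed in all 20 alternatives, and all 22 kept their direction.

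Ndufc2 (chromosome 7, 97400003 to 97407802, plus strand) had the largest difference. Its lowest, median and highest values over the 7 embryos were 443, 483 and 548 CPM in progenitors and 240, 311 and 348 in neurons. The classes did not overlap, and every embryo showed the same direction. The log2 difference was 0.74 (SE 0.06, adjusted p = 1.13e-10). The annotation places Gm16053 over Ndufc2 on the same strand, and how tags in the overlap were assigned is not known. Ndufb11, an X-linked accessory subunit of complex I, ran from 200 to 246 CPM (median 220) in progenitors and from 153 to 219 (median 188) in neurons. Its ranges overlapped between embryos, but it was higher in progenitors within each of the 7, with a log2 difference of 0.29 (SE 0.06, adjusted p = 0.000204).

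Among the other subunits higher in progenitors, Ndufa2 differed by 0.33 (adjusted p = 0.000198), Cox8a by 0.27 (adjusted p = 0.00174) and Ndufb4, at only 13.6 to 38.8 CPM, by 0.39 (SE 0.16, adjusted p = 0.0373). Sdhd, a membrane anchor of complex II, differed by 0.31 (SE 0.09, adjusted p = 0.00605). The 2 further complex II genes, named after their values were seen, were the catalytic subunit Sdha (0.23) and the anchor Sdhc (0.26). Sdha had a median of 209 CPM (170 to 242) in progenitors and 185 (155 to 200) in neurons, and was higher in 7 of 7 embryos. On the lower side, Ndufb2 fell by 0.25, Ndufs4 by 0.22, Ndufa8 by 0.21 and Ndufb10 by 0.21, all of complex I, while Cox6a1 fell by 0.19 and Cox5a by 0.18. These 6 were lower in 6 or 7 of the 7 embryos, and each range overlapped that of neurons. Among cells of 1000 to 3000 UMIs all 6 kept their direction, but only Ndufb10 passed by edgeR (−0.35, adjusted p = 0.00856). The adjusted p there was 0.0729 for Ndufb2, 0.279 for Ndufs4, 0.445 for Ndufa8, 0.413 for Cox6a1 and 0.19 for Cox5a. Of the higher genes named here Sdhd passed (0.00682), while Ndufa2 (0.0581), Cox8a (0.196), Ndufb4 (0.224), Sdha (0.0539) and Sdhc (0.349) did not.

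The mitochondrial genes moved in the other direction from most called nuclear ones. mt-Nd4, a core subunit of complex I, had 490, 564 and 690 CPM in progenitors (lowest, median, highest) and 564, 708 and 862 in neurons. It was lower in progenitors in 7 of 7 embryos, with a log2 difference of −0.30 (SE 0.05, adjusted p = 4.39e-06). mt-Cytb had 915, 1045 and 1199 in progenitors and 1164, 1259 and 1437 in neurons, with a difference of −0.25 (SE 0.04, adjusted p = 3.68e-05), also in 7 of 7. mt-Nd2 differed by −0.14 (adjusted p = 0.0294) in 5 of 7. In all, 3 of the 7 tested mitochondrial members were lower and 0 higher, with a median of −0.14. Among cells of 1000 to 3000 UMIs mt-Nd4 kept its call (−0.33, adjusted p = 0.000116). mt-Cytb (−0.15, adjusted p = 0.071) and mt-Nd2 (−0.09, adjusted p = 0.43) did not. There mt-Co1 passed in the other direction (0.20, adjusted p = 0.0181), and the median of the mitochondrial members was 0.01. The ribosomal RNAs, which are not members, were lower in progenitors too, with log2 differences of −0.15 for mt-Rnr1 and −0.14 for mt-Rnr2.

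**Figure D3:**
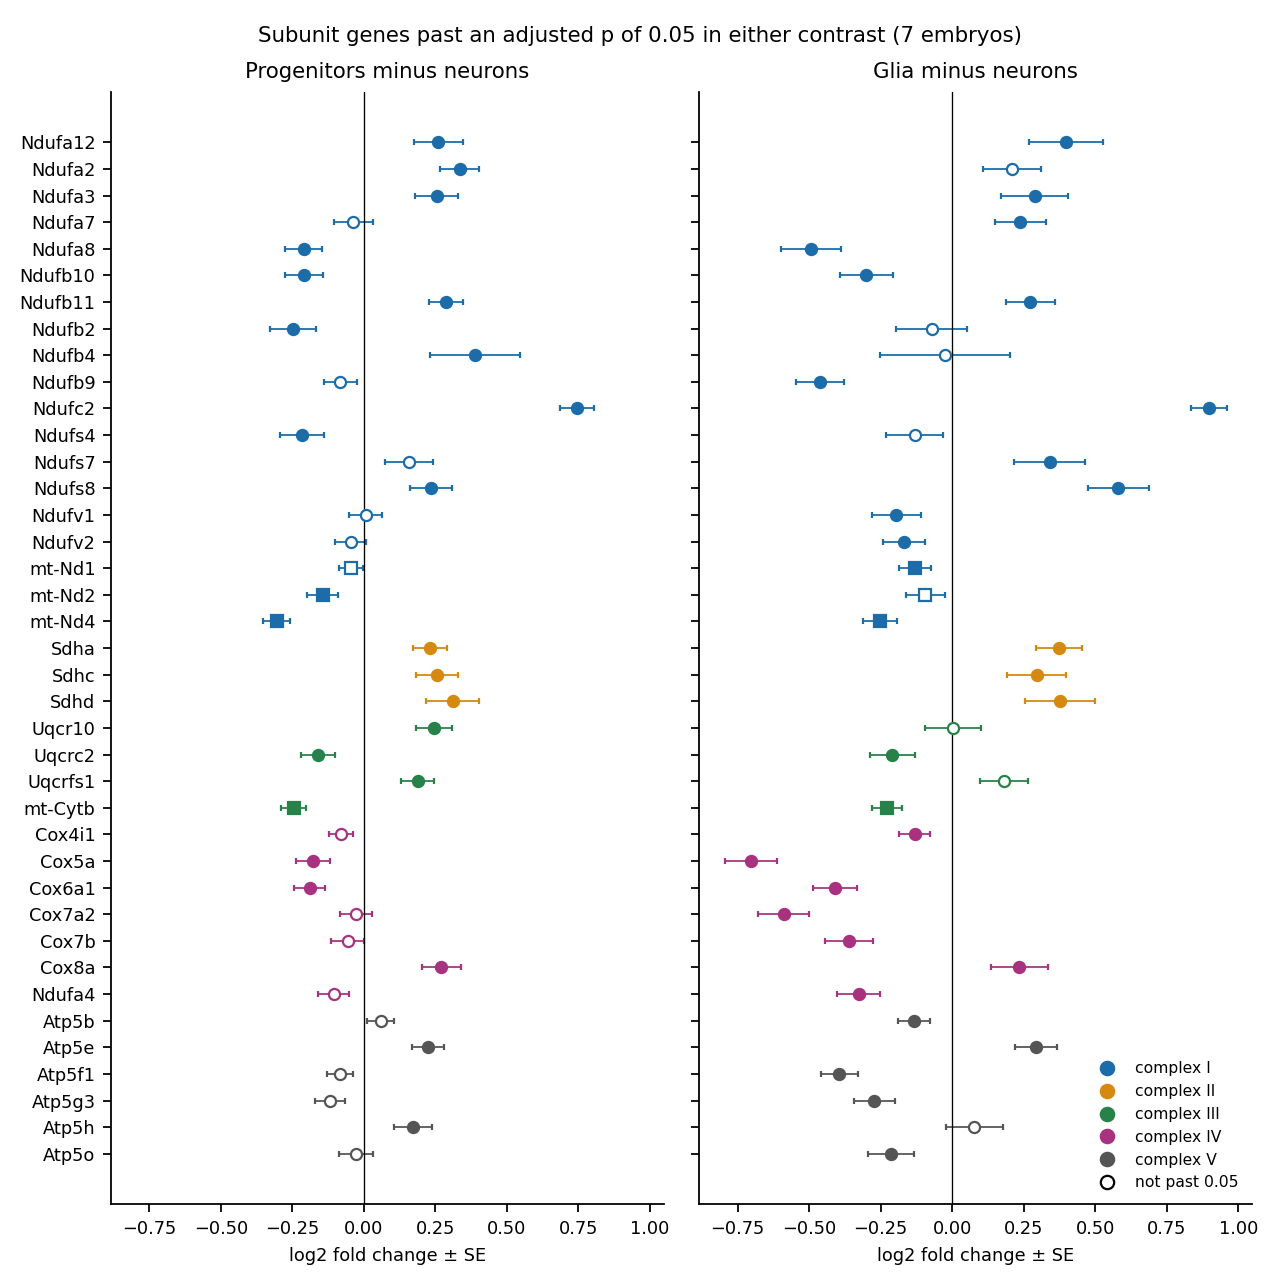
Log2 fold change with its SE for every subunit gene past an adjusted p of 0.05 in either comparison, coloured by complex (circles nuclear, squares mitochondrial, open symbols not past the threshold). Both comparisons use the same neurons; Ndufc2 is the highest in both, at 0.74 and 0.90.

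Glia were compared with the same neurons, so the 2 comparisons share them and their values are only set side by side. In glia, Ndufc2, Ndufs8 and 3 of the 4 complex II genes were higher, while 6 of the 12 tested complex IV genes were lower (Cox5a, Cox7a2, Cox6a1, Cox7b, Ndufa4 and Cox4i1) and 1 was higher, Cox8a. The call of Cox8a (0.23) held in 5 of 20 alternatives, and at 1000 to 3000 UMIs it was at 0.10 (adjusted p = 0.602). Over 10862 tested genes, 12 of the 75 nuclear subunits were higher and 16 lower, against 27.4% and 29.3% of all genes. The nuclear median was −0.08 and that of all genes −0.02. Counts of higher and lower were 7 and 5 of 36 in complex I, 3 and 0 of 4 in complex II, 0 and 1 of 8 in complex III, 1 and 6 of 12 in complex IV and 1 and 4 of 14 in complex V. With factors over every gene with at least 1 UMI (a shift of −0.12) 4 were higher and 35 lower, and without the block 4 and 10. Glial cells held a median of 6 to 8 of the 16 glial and 2 to 3 of the 12 neuronal markers, and neurons 0 to 1 and 6 to 8. At 1000 to 3000 UMIs the counts were 11 and 6, and without control 15 the higher count was 7. A set of 9 nuclear genes passed in all 20 alternatives: Ndufc2, Ndufs8, Sdha, Cox5a, Cox7a2, Cox6a1, Atp5f1, Ndufa8 and Ndufb9.

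Ndufc2 stood at 433, 552 and 682 CPM in glia and 241, 314 and 351 in neurons, again without overlap (log2 difference 0.90, SE 0.06, adjusted p = 8.1e-20). Ndufs8, an iron-sulfur subunit in the arm of complex I that receives electrons from NADH, had 107, 131 and 168 in glia and 74.3, 85.5 and 118 in neurons (0.58, SE 0.11, adjusted p = 3.55e-06). It was higher in glia in every embryo. Sdha (chromosome 13, 74322254 to 74350280, minus strand) had 181, 255 and 267 in glia and 157, 185 and 201 in neurons (0.37, SE 0.08, adjusted p = 6.02e-05). Sdhd differed by 0.38, Ndufa12 by 0.40 and Ndufs7, another iron-sulfur subunit, by 0.34.

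Cox5a (chromosome 9, 57521274 to 57532426, plus strand), a matrix-facing subunit of complex IV, had the largest fall in glia. It stood at 104, 124 and 165 CPM in glia and 169, 225 and 242 in neurons. The classes did not overlap, and the difference was −0.70 (SE 0.09, adjusted p = 8.85e-10). Cox7a2 (chromosome 9, 79755361 to 79759878, minus strand), a small membrane subunit of the same complex, had 116, 158 and 179 in glia and 169, 245 and 274 in neurons (−0.59, SE 0.09, adjusted p = 3.87e-08). It was lower in all 7 embryos, and the ranges overlapped between embryos. In progenitors the same gene differed from neurons by −0.02 and did not pass the test. Ndufa8 (−0.49), Ndufb9 (−0.46) and Cox6a1 (−0.41) followed, with Atp5f1, a subunit of the peripheral stalk of ATP synthase, at −0.40. Each was lower in 7 of 7 embryos.

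**Figure D4:**
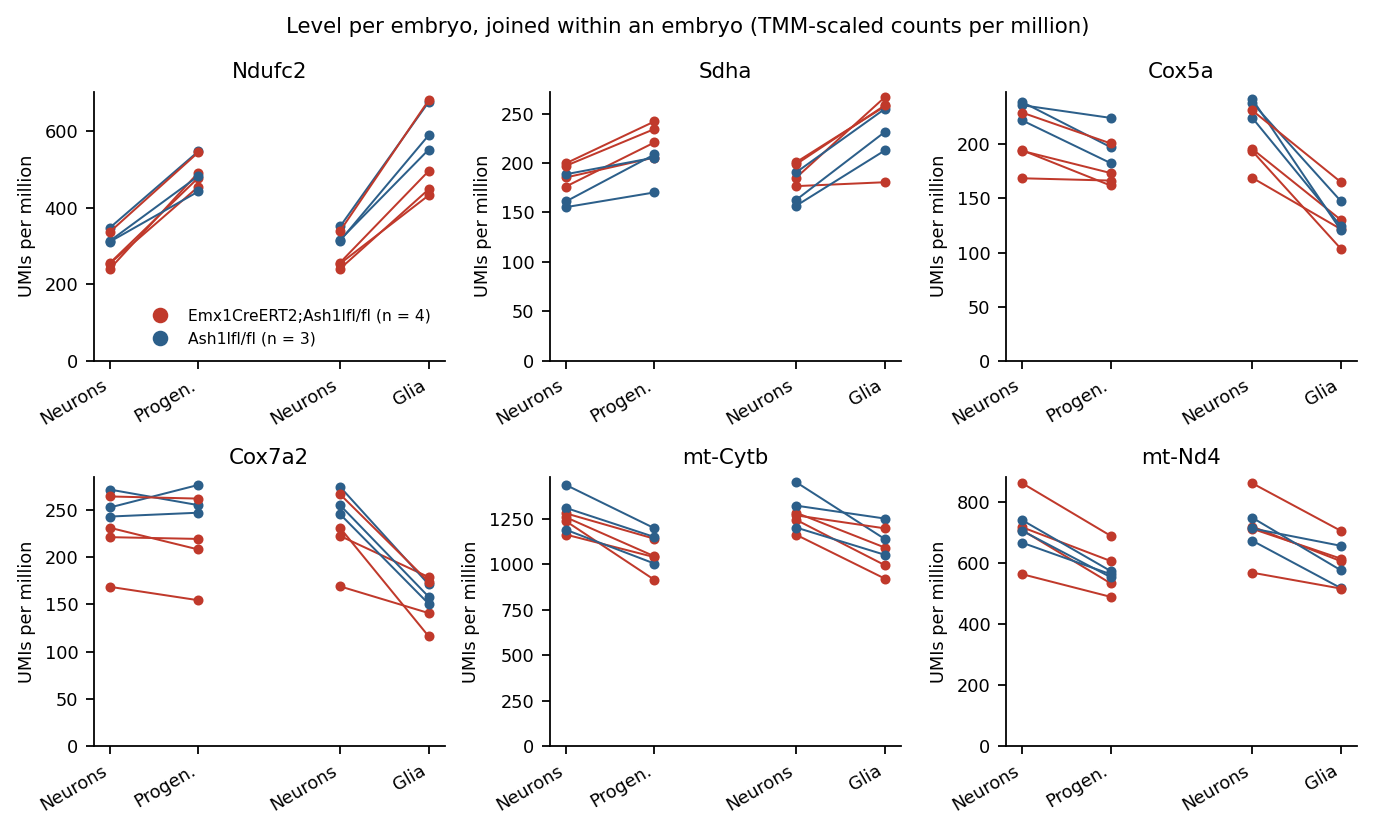
CPM (scaled by TMM factors within each comparison) of 6 genes in each embryo, with lines joining the neurons to the progenitors or glia of the same embryo. Ndufc2 rises in every embryo in both comparisons, Cox5a and Cox7a2 fall in glia in every embryo, and mt-Cytb and mt-Nd4 fall in both.

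Of the mitochondrial genes, mt-Nd4 (−0.25), mt-Cytb (−0.23) and mt-Nd1 (−0.13, adjusted p = 0.0397) were lower in glia, 3 of 7 tested. mt-Cytb ran from 922 to 1252 CPM in glia (median 1093) and from 1163 to 1452 in neurons (median 1270). None of the 3 passed at 1000 to 3000 UMIs, where mt-Cytb was at −0.15 (adjusted p = 0.0726) and mt-Nd4 at −0.16 (adjusted p = 0.0788). With a mitochondrial limit of 20% or none, mt-Nd5 passed as higher in glia (0.22 and 0.24). The assembly factor Ndufaf5, which modifies a complex I subunit during assembly, was lower than in neurons in both classes, with log2 differences of −0.78 (SE 0.10) in progenitors and −1.31 (SE 0.17) in glia. Ndufaf2 was also lower in glia (−0.63, SE 0.15).

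GABAergic neurons were compared with glutamatergic neurons of the same embryo. Lower in GABAergic cells were 7 of 36 subunits in complex I, 1 of 4 in II, 2 of 8 in III, 2 of 12 in IV and 2 of 13 in V. Of all tested genes 14.5% were lower, and with so few genes per complex these counts set no complex apart. Higher were Ndufa5 of complex I and Cox7a2l, which promotes assembly of respiratory supercomplexes. Over 9373 genes, 2 of the 73 tested nuclear subunits were higher and 14 lower, beside 13.4% and 14.5% of all genes. The nuclear median was −0.10 and that of all genes −0.00. None of the 7 tested mitochondrial genes passed; 1 of them had an unadjusted p under 0.05, beside 37.5% of all genes, and DESeq2 also called 0. With factors over every gene 2 were lower, and mt-Co1 passed as higher at a mitochondrial limit of 20% (0.19), with no limit (0.25) and with cells of at least 300 genes (0.17). The counts were sensitive: 4 nuclear genes passed without the block, 8 without mutant 12 and 6 without control 15, and DESeq2 called 7. Lower genes numbered 9 without mutant 11, 7 without mutant 12 and 6 without control 15. With factors over every gene the split was 0 higher and 20 lower.

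Sdhb and Cox6a1 passed in all 20 alternatives. Sdhb had 142, 161 and 240 CPM in GABAergic neurons (lowest, median, highest) and 191, 238 and 261 in glutamatergic neurons, with a difference of −0.40 (SE 0.09, adjusted p = 0.000788). Cox6a1 (chromosome 5, 115345642 to 115348981, minus strand) had 172, 297 and 374 against 275, 350 and 454 (−0.38, SE 0.08, adjusted p = 0.000186). Both were lower in GABAergic cells in 7 of 7 embryos, and the ranges overlapped between embryos. Ndufs8 (−0.40), Ndufa7 (−0.36), Uqcrc2 (−0.35) and Cox7b (−0.35) were also lower. Their calls held in 13, 12, 19 and 18 of 20 alternatives, in that order. At 1000 to 3000 UMIs Ndufs8 (−0.35, adjusted p = 0.188) and Cox7b (−0.17, adjusted p = 0.34) did not pass by edgeR, while Ndufa7 and Uqcrc2 did. Ndufa5 had 56.8, 122 and 152 in GABAergic and 54.5, 91.7 and 102 in glutamatergic cells (0.43, SE 0.13, adjusted p = 0.00779). Cox7a2l differed by 0.30 (SE 0.11, adjusted p = 0.037) and was lower in 1 of 7 embryos, mutant 11. Its call held in 8 of 20 alternatives, and at 1000 to 3000 UMIs it was at 0.07 (adjusted p = 0.771).

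Genes that supply or maintain the respiratory chain were counted in the same fits, where 29.5% of all genes were higher and 28.6% lower in progenitors, 27.4% and 29.3% in glia and 13.4% and 14.5% in GABAergic neurons. In progenitors 10 of 17 glycolysis genes were higher than in neurons and 4 lower, with the aldolase Aldoc at 3.41 and hexokinase Hk1 at −1.04 on the log2 scale, and in glia 11 of 16 were higher and 4 lower. Aldoc is itself a known astroglial gene and reached 5.71 in glia. Of the tricarboxylic acid cycle genes, 5 of 12 were higher and 0 lower in progenitors, among them Suclg1 (0.37) and citrate synthase Cs (0.30), while in glia 2 of 13 were higher and 2 lower, with Suclg2 at 3.53. GABAergic neurons had 6 of 12 cycle genes and 9 of 14 glycolysis genes lower than glutamatergic neurons and 0 higher, including Cs (−0.46), Mdh2 (−0.49) and Ldha (−1.68). Among regulators of mitochondrial gene expression, 8 of 15 were higher and 2 lower in progenitors, led by the mitochondrial DNA polymerase Polg (0.66) and the ETS factor Gabpa (0.62). In glia 5 of 14 were higher and 2 lower, with the coactivator Ppargc1a at 2.11. The ADP/ATP carriers went apart: Slc25a5 was higher by 1.27 in progenitors and 1.24 in glia, and Slc25a4 differed by −0.37 and −0.43. Assembly factors outside the name rule gave 4 higher and 2 lower of 25 in progenitors and 4 and 3 of 25 in glia.

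Promoter windows of the members (250 bases before to 50 after the RefSeq start, GRCm38.p6) were searched on both strands for motifs of factors known to act on such genes. There were 73 windows for 68 of the nuclear members. The NRF1 motif core CGCATGCG was in 13.7% of them and in 1.87% of all 32851 windows of the same length, the YY1 motif AAGATGGCG in 9.59% and 1.40%, the ETS motif CCGGAAGT in 6.85% and 3.89%, and the SP1 motif GGGCGG in 39.7% and 35.7%. None of the motifs contains another. The 10 windows with the NRF1 core were those of Atp5g2, Atp5j, Atp5k, Atp5l, Cox6a1, Cycs, Ndufa8, Ndufa11, Uqcr11 and Uqcrc1. A match describes letters and is not evidence of binding. The windows of Cox6a1 (chr5:115348909-115349208, minus strand) and Ndufc2 (chr7:97399753-97400052, plus strand) are shown since these genes differed in opposite directions in progenitors and glia. Capitals mark the NRF1 core in Cox6a1. The Cox6a1 window also holds the SP1 motif, read on the other strand and left unmarked. The Ndufc2 window holds none of the 4 motifs.
Cox6a1: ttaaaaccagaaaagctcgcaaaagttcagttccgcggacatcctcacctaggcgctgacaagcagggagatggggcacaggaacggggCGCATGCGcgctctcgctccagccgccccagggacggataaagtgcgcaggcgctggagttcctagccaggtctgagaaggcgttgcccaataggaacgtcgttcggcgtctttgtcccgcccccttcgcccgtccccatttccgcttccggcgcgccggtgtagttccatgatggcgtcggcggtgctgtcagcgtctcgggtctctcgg
Ndufc2: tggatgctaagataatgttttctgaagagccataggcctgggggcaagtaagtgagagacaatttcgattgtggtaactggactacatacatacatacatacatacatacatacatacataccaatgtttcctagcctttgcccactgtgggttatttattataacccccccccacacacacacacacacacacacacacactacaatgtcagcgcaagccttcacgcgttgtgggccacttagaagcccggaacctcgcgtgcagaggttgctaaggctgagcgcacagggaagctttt

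Mutants were compared with controls in all kept cells and within neurons, progenitors and glia to ask whether subunit expression differed with genotype. None of the members passed the test in any of the 4 comparisons. Most nuclear subunits lay slightly below control, while most mitochondrial members lay slightly above. Complex IV and V genes were lowest by median in all kept cells and in neurons. In progenitors the medians were −0.22 for IV, −0.15 for I and −0.13 for V. In glia they were −0.13 for I, −0.09 for III and −0.07 for both IV and V. In all kept cells 0 of 75 nuclear and 0 of 8 mitochondrial members passed, beside 0.0233% of 12893 genes by edgeR's quasi-likelihood test (2 higher, 1 lower). DESeq2 called 21 genes and no member. At an unadjusted p under 0.05, 5 nuclear members were lower and mt-Co1 was higher, beside 5.44% of all genes lower and 5.03% higher. Values were below 0 for 64 of the 75 nuclear members, beside 49.5% of all genes, with a median of −0.15 against 0.00. The mitochondrial median was 0.09, with 6 of 8 above 0. By complex the nuclear medians were −0.15 for I, 0.04 for II, −0.12 for III, −0.24 for IV and −0.21 for V, and all 12 tested complex IV genes were below 0. Subunit genes share libraries and scaling, so their signs are not independent.

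Within neurons, progenitors and glia 0 members passed by edgeR or by DESeq2, beside 0.0415%, 0.0104% and 0.102% of all genes by edgeR. At an unadjusted p under 0.05, 6 nuclear members were lower and 2 mitochondrial members higher in neurons, beside 5.27% of all genes lower and 4.89% higher. In progenitors 3 nuclear members were lower and 0 members higher (3.78% and 3.92% of all genes), and in glia 4 nuclear members were lower and 1 nuclear and 1 mitochondrial member higher (3.14% and 3.49%). Nuclear medians were −0.14 in neurons (62 of 75 below 0, beside 50.3% of genes), −0.15 in progenitors (63 of 73, beside 47.7%) and −0.10 in glia (57 of 69, beside 49.8%). The median depended on single libraries. It was −0.06 in all cells without mutant 12, with 51 of 75 below 0, and −0.29 without mutant 17. Without control 16 and mutant 12, the highest in erythroid markers of their groups, it was −0.08 in all cells, −0.07 in neurons and in progenitors, and −0.03 in glia, with 37 of 69 below 0. Mutant 12 was also the highest in meningeal and GABAergic markers, so leaving it out changes more than the erythroid content. The pan-neuronal and glutamatergic marker sums were lower in every mutant than in any control, and their part in the nuclear median was not tested. Mutant 17, at 11233 CPM in pan-neuronal markers (controls 11342 to 11651), had the highest nuclear share of all embryos, 1.60%. The other mutants lay below every control in both. The nuclear median was −0.15 over all cells and −0.14 within gated neurons. The mitochondrial median moved with the limit on mitochondrial UMIs: it was 0.24 at a limit of 5%, 0.02 at 20% and −0.01 with none. The limit removed more barcodes in controls than in mutants, and its part in the difference was not tested beyond these settings. The difference between mutants and controls in the log2 ratio of mitochondrial to nuclear UMIs was 0.17 with a pooled SD of 0.22, so it lay within the spread of the embryos.

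**Figure D5:**
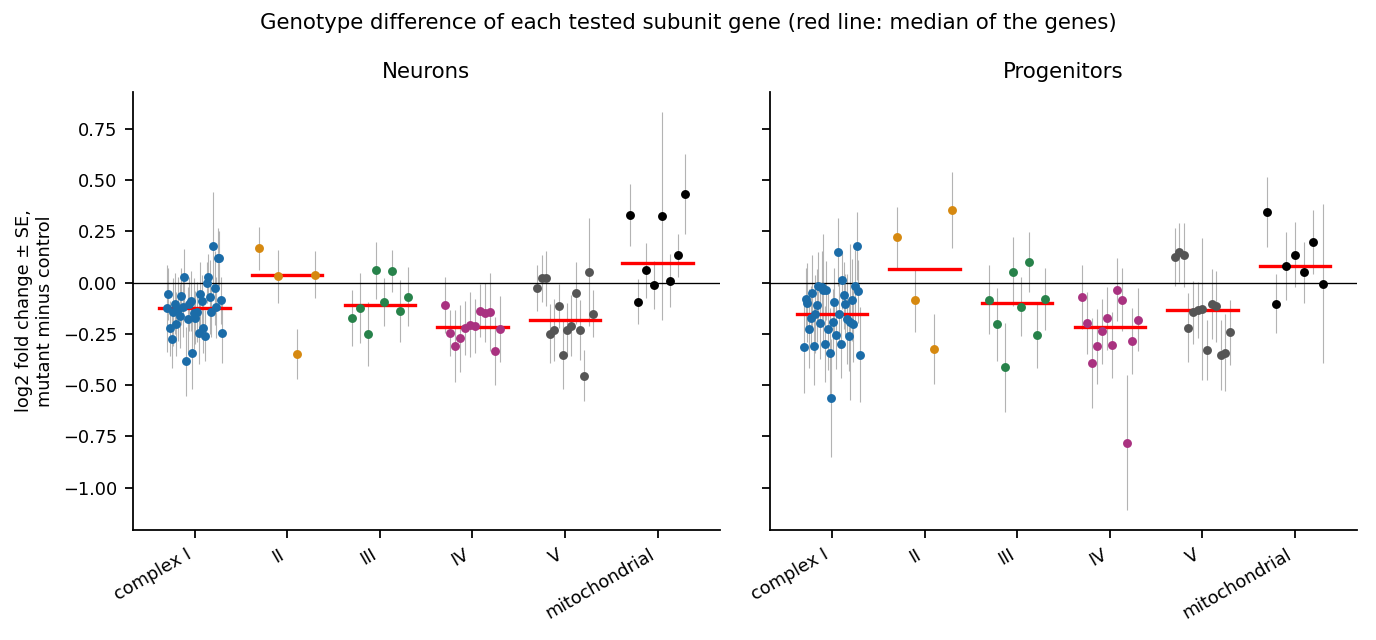
Log2 fold change, mutant minus control, with its SE for each tested subunit gene in neurons and in progenitors (4 mutants, 3 controls). Points are genes by complex, and the red line is the median of the genes; no gene passed the adjusted threshold, and complex IV genes lie below 0.

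The nuclear members with the smallest unadjusted p were Atp5k and Cycs on the lower side. Atp5k, which encodes the e subunit of ATP synthase that helps it form dimers, had 97.0, 81.5, 79.6 and 107.1 CPM in mutants 10, 11, 12 and 17 and 107.3, 120 and 146 in controls 14, 15 and 16. The groups did not overlap, by a narrow margin at mutant 17 and control 14. The log2 difference was −0.45 (SE 0.13), and the adjusted p of 0.323 did not pass. It was 0.0255 when every gene with at least 1 UMI was tested and ran up to 0.819 over the alternatives. Without control 16 and mutant 12 the difference was −0.25. In neurons the difference was −0.45 (adjusted p = 0.283) and in glia −0.74 (adjusted p = 0.539).

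Cycs, the electron carrier between complexes III and IV, had 4.82, 6.82, 7.44 and 6.87 CPM in the mutants and 11.6, 9.04 and 10.6 in the controls, also without overlap (−0.68, SE 0.21, adjusted p = 0.330). In all kept cells 3 nuclear members had every mutant below every control and 1 had every mutant above, beside 5.27% and 4.51% of all genes. The upward one was Sdhd, at 69.7 ± 3.12 CPM (SD, n = 4) in mutants and 65.1 ± 0.891 (SD, n = 3) in controls (0.10, adjusted p = 0.767). On the higher side by unadjusted p stood Sdha (0.15, adjusted p = 0.617) and Ndufv1 (0.14, adjusted p = 0.733). In neurons Sdhc, the other complex II anchor, came next to Atp5k on the lower side (−0.35, adjusted p = 0.370).

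mt-Co1, the catalytic core of complex IV, was the mitochondrial member with the smallest unadjusted p. It had 607, 626, 403 and 436 CPM in mutants 10, 11, 12 and 17 and 462, 360 and 408 in controls 14, 15 and 16. The groups overlapped in all kept cells (0.34, SE 0.16, adjusted p = 0.472). In glia they did not, at 561 ± 96.1 CPM (SD, n = 4) against 399 ± 27.2 (SD, n = 3), with a difference of 0.49 (SE 0.17, adjusted p = 0.569). Of the 6851 genes tested in glia, 229 had every mutant above every control. The 3′ end of mt-Co1 is identical in sequence to Gm29216, as given above. mt-Rnr1 lay in the other direction, at −0.37 in all kept cells (adjusted p = 0.404).

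In progenitors the members with the smallest p were Cox7c (−0.78, adjusted p = 0.620) and Atp5g3 (−0.33, adjusted p = 0.632) on the lower side and Sdhd (0.36, adjusted p = 0.663) and Sdha (0.22, adjusted p = 0.751) on the higher. In glia, where Atp5k was lowest, Ndufb7 stood at −0.53 (adjusted p = 0.668) and Ndufv1 at 0.42 (adjusted p = 0.743). Whether the genotype difference itself differed between neurons and progenitors was tested by the interaction, with 0.0% of 11957 genes called (0 by edgeR and 0 by DESeq2) and 4.73% at an unadjusted p under 0.05. Ndufc2 was the only nuclear member among the latter: its genotype difference was −0.26 in neurons and 0.01 in progenitors (interaction −0.27, SE 0.11, unadjusted p = 0.0182, adjusted p = 1.0). No gene of the tricarboxylic acid cycle, glycolysis, regulator, assembly or carrier lists passed between genotypes in all kept cells. The nearest were Polg (0.57, adjusted p = 0.322) and Pfkl (0.39, adjusted p = 0.330).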

How the data were processed

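Single cells from the cortex of 7 embryos (4 mutant, 3 control), 1 library each, were measured by Seq-Well. Genotype was taken from the sample labels. The authors deposited 1 table of counts per library, whole-number UMI counts per gene symbol and barcode that were not normalised. Per the submitters' processing notes, STAR and mm10 were used. For the version of STAR, the annotation, tags shared between genes and doublets, the handling is not given in the sources used here.

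The members and lists were chosen with earlier results of these data known. Library totals ran from 7083225 to 11859209 UMIs over 50191 barcodes. Kept barcodes had at least 500 genes and at most 10% of UMIs in mt- genes. Progenitors had at least 3 of 15 markers. Glia had at least 4 of 16 glial markers with more glial than neuronal UMIs, and neurons at least 4 of 12 with the reverse, each with at most 1 progenitor marker. Barcodes with at least 3 vascular or microglial markers were kept apart. Glutamatergic neurons had at least 2 of their markers and 0 GABAergic ones, and GABAergic neurons at least 2 with at most 1 glutamatergic.

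UMIs were summed per embryo and class and tested with edgeR 4.0.16 (R 4.3.3): TMM, filterByExpr and the quasi-likelihood test, two-sided, with Benjamini-Hochberg adjustment over all genes tested and a threshold of 0.05. Class comparisons carried the embryo as a block, since both sums of a pair come from the same embryo. SE is the log2 fold change divided by the square root of F. CPM values in tests are scaled by TMM factors, and all other CPM values are plain. Scripts were tested on simulated data. DESeq2 1.42.0 was an alternative. Named were, in each comparison, the 6 called nuclear members with the largest change in each direction, or the 2 with the smallest p where none was called, together with all called mitochondrial members, the highest nuclear subunit of each complex and the isoform pairs. A result that this rule names is not reported here. Gene positions and shared sequence come from the GENCODE annotation of GRCm38, and promoters from RefSeq. The embryos are separate animals of 1 litter. Intervals and floors (3 counts) cover counting error only.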

Additional observations from a re-analysis of the deposited data

Results flagged for a closer look

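Over 80 checks of single embryos within a group of 4 mutants or over the 7 embryos, 9 showed 1 embryo far from the rest. Chance marks about 1 in 20 groups. Mutant 17 accounts for 4 of them: its log2 ratio of mitochondrial to nuclear member UMIs was the lowest of the mutants in all kept cells (−2.19, the others −1.65 to −1.60), in neurons (−2.18, the others −1.63 to −1.57), in glia (−2.18, the others −1.74 to −1.66) and in glutamatergic neurons (−2.24, the others −1.66 to −1.57). These 4 values share 1 library.

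The other 5 concern the log2 ratio between classes of 1 gene in 1 embryo. In mutant 11 the ratio of progenitors to neurons was −0.44 for Cox6a1 (other embryos −0.24 to −0.08) and −0.44 for mt-Cytb (others −0.27 to −0.16). In the same embryo the ratio of GABAergic to glutamatergic neurons was −0.48 for Cox7a2l (others 0.11 to 0.50). In control 14 the ratio of glia to neurons was −0.79 for Atp5f1 (others −0.44 to −0.24). In mutant 12 it was 0.0317 for Sdha (others 0.358 to 0.526).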

How the results depend on the processing

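No paired analysis was possible for the genotype comparisons because mutants and controls share no replicate numbers. Within embryos, the block is the embryo itself. With no replicate block, progenitors against neurons gave 7 called members in place of 25 (5 nuclear higher, 0 lower), glia against neurons 16 in place of 31 (4 higher, 10 lower) and GABAergic against glutamatergic neurons 4 in place of 16 (0 higher, 4 lower).

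Factors and tests over every gene with at least 1 UMI gave 1 called member between genotypes in all cells and 1 in neurons, in place of 0 and 0 (165 and 142 genes called in place of 3 and 5), 3 higher, 18 lower and 5 mitochondrial lower members in progenitors, 4, 35 and 5 in glia, and 0 higher with 2 mitochondrial lower in GABAergic neurons. At 1000 to 3000 UMIs progenitors gave 11 members (8 higher, 1 lower, 1 mitochondrial lower and 1 higher), glia 17 (6 lower, 0 mitochondrial) and GABAergic neurons 9 (1 higher, 8 lower). With a mitochondrial limit of 20% or none, 11 nuclear members were lower in progenitors in place of 7. At 5% GABAergic neurons gave 6 (1 higher, 5 lower) and by DESeq2 7 (1 higher, 6 lower). With 1 more marker required, 1 mitochondrial member was lower there, and at a limit of 20%, with none and at 300 genes 1 was higher. In 2 alternatives chosen after seeing the data, GABAergic neurons gave 1 higher without control 16 and mutant 17, and 8 members (1 higher, 7 lower) without control 16 and mutant 12. Between genotypes in all cells these called 35 and 14 genes and 0 members.

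Leaving out each embryo in turn gave 21 to 29 members in progenitors (13 to 16 higher, 5 to 10 lower, 2 to 3 mitochondrial), 22 to 30 in glia (7 to 11, 13 to 16, 2 to 3) and 6 to 17 in GABAergic neurons (0 to 2 higher, 6 to 15 lower). Without mutant 17 edgeR called 26 genes between genotypes in all cells, none of them a member.

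A total of 4 values of named genes changed sign, none of them called: without control 16 and mutant 17 Ndufv1 was −0.0371 in all cells and −0.0635 in neurons, without control 16 and mutant 12 it was −0.005 in neurons, and at 1000 to 3000 UMIs the interaction for Ndufs5 was −0.089. The causes were not tested. Of the summary values, 413 kept their call or size and 53 moved. Of the values of named genes, 1013 kept direction and side of the threshold, 96 lost the call and 2 gained it. Genes below the count filter, 9 to 15 nuclear and 4 to 6 mitochondrial members by comparison, were not tested.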
